A study of Mus musculus with 2 samples.

Results

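The cells described are the Shh-expressing hair follicle cells of the newborn mouse epidermis, 988 of the 19488 cells that passed quality control in 2 single-cell RNA-seq libraries. A barcode was kept when it held 900 to 7700 genes and under 10% mitochondrial UMIs, and counted as a Shh cell when it held at least 2 Shh UMIs (unique molecules counted) and under 0.8% of its UMIs from Krt1 and Krt10, keratins of differentiated interfollicular cells. The rule therefore chose the cells by their measured Shh, Krt1 and Krt10, and these 3 genes are described below and were not tested. The libraries came from the dorsal epidermis of 2 male Chrm3 KO mice on C57BL/6J at postnatal day 0, 1 library per mouse. Chrm3 encodes the M3 muscarinic acetylcholine receptor, and all cells described here, those used for comparison included, carry its knockout. Its transcript was counted 15 times over 10816 barcodes of KO mouse 1 and 23 times over 15867 of KO mouse 2, and 0 times in the Shh cells of either; no WT level was at hand to set these beside, and whether the counted 3′ end lies in the deleted part is not given in the sources used here. No WT library was analysed here, so nothing below is an effect of the genotype, and animals of 1 genotype and sex at a single age cannot stand for follicles in general. The epidermis had been separated from the dermis, so follicles that stayed in the dermis would not be counted.

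Sonic hedgehog (Shh) is a secreted lipid-modified signal that the epithelium of the growing follicle sends to itself and to the mesenchyme beneath it. It binds Patched receptors, which releases Smoothened and switches on Gli transcription factors, and Ptch1 and Gli1 are themselves targets of the pathway. In skin, Shh is made by cells of the hair placode and later by part of the hair matrix, downstream of Wnt and ectodysplasin signalling, and Lhx2 and Sox9 are transcription factors that mark early follicle cells of different kinds.

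KO mouse 1 gave 388 Shh cells among 7607 retained cells, 5.10% (exact 95% binomial interval 4.62% to 5.62%), and KO mouse 2 gave 600 among 11881, 5.05% (4.66% to 5.46%). The mean was 5.08% ± 0.0357 (SD, n = 2), and the intervals, which cover counting error only, overlapped. The libraries held 109756784 and 166441732 UMIs in all, and the Shh cells summed to 6174697 and 9324969. The median depth of a Shh cell was 12416.5 UMIs over 3599 genes in the first mouse, and 12554 UMIs over 3494.5 genes in the second. The libraries shared 127 barcode sequences, of which 2 and 3 lay among the Shh cells of the 2 mice and none was a Shh cell in both.

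Shh (ENSMUSG00000002633, chr5:28456815-28467256, minus strand, GRCm38/mm10) had a median of 3 UMIs per Shh cell in each mouse and a maximum of 30 in KO mouse 1 and of 21 in KO mouse 2. Just inside the threshold lay 121 and 198 cells with exactly 2 Shh UMIs, whose median Lhx2 count was 8 and 7 UMIs. Just outside it lay 236 and 440 cells with 1 Shh UMI that met the keratin limit, of 246 and 461 with 1 Shh UMI in all. The median Lhx2 count of those that met the limit was 7 and 5. Cells just outside the threshold thus held Lhx2 too, at somewhat lower counts, and the rule cut through a continuous range. On the keratin limit, the highest share of Krt1 and Krt10 among Shh cells was 0.522% and 0.774%, and 3 and 19 cells with enough Shh were left out by it, with medians of 4.47% and 2.43%.

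Free RNA in the droplets can give UMIs to cells that do not express a gene, so Shh was counted in cells that should lack it. Of the cells rich in melanocyte transcripts, 4 of 436 in KO mouse 1 and 13 of 734 in KO mouse 2 held at least 2 Shh UMIs, and of the cells rich in immune transcripts 1 of 177 and 0 of 208 did. Every one of these cells also met the rule for Shh cells and is among those described. Of the 17 melanocyte-type ones 14 formed a cluster of their own, in which 9 were called doublets, and the part of doublets in these counts was not tested. In the other melanocyte-type cells, with 0 or 1 Shh UMI by construction, Shh was at 1.95 and 1.15 CPM. The 0 of 208 allows a share of up to 1.44%, taking 3 counts as the limit of a count of 0. These shares lie below the share of Shh cells among all retained cells, at median depths of 9083.5 and 10099 UMIs in the melanocyte-type cells.

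The label was checked against Lhx2 (chr2:38339281-38369733), a follicle transcription factor that the rule did not use. Lhx2 was detected in 97.4% of the Shh cells of KO mouse 1 and in 97.3% of those of KO mouse 2, with a median of 10 and 9 UMIs. After every cell was thinned to 5000 UMIs, the shares were 92.2% and 91.6%. In the melanocyte-type cells that were not Shh cells Lhx2 was found in 13.9% and 16.8%, and in the immune-type cells in 10.8% and 11.5%. Among all cells under the keratin limit without any Shh UMI it was found in 46.7% and 45.9%, before thinning. The label of hair follicle cells was thus borne by the marker given for it, which many cells without Shh held too.

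Sox9, the transcription factor of outer root sheath and bulge progenitors, was rarer. It was detected in 105 of 378 Shh cells that held Lhx2 in KO mouse 1, or 27.8% (23.3% to 32.6%), against 66.8% (65.1% to 68.5%) of the 3050 Lhx2 cells under the keratin limit without any Shh UMI. In KO mouse 2 the shares were 24.1% (20.7% to 27.8%) of 584 and 61.8% (60.4% to 63.2%) of 4695. Thinned to 5000 UMIs they were 12.6% and 11.6% of the Shh cells with Lhx2, and 48.3% and 43.0% of the Lhx2 cells without Shh. In both mice Sox9 was therefore found in a smaller share of Shh cells than of other Lhx2 cells. The intervals are over cells of 1 animal each and cover counting error only.

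Genes also changed in level with the number of Shh UMIs in a cell. From the cells with exactly 2 Shh UMIs to those with 5 to 9, the level of Sp5, a transcription factor and Wnt target, went from 53.3 to 111 CPM (UMI counts scaled to a common total, without further scaling) in KO mouse 1 and from 67.9 to 139 in KO mouse 2. Bmp4, a secreted bone morphogenetic protein, went from 66.3 to 115 and from 64.1 to 137 over the same bins. Sox9 went the other way, from 75.8 to 18.7 and from 56.7 to 37.7. Ptch1, the main Shh receptor, was at 270 and 290 in KO mouse 1 and at 221 and 233 in KO mouse 2. The bins are defined by the same gene as the cells, so these values describe the group and were not tested; the cells with 10 or more Shh UMIs, 26 and 31 in number, were also deeper, with medians of 29803 and 18037 UMIs.

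**Figure D1:**
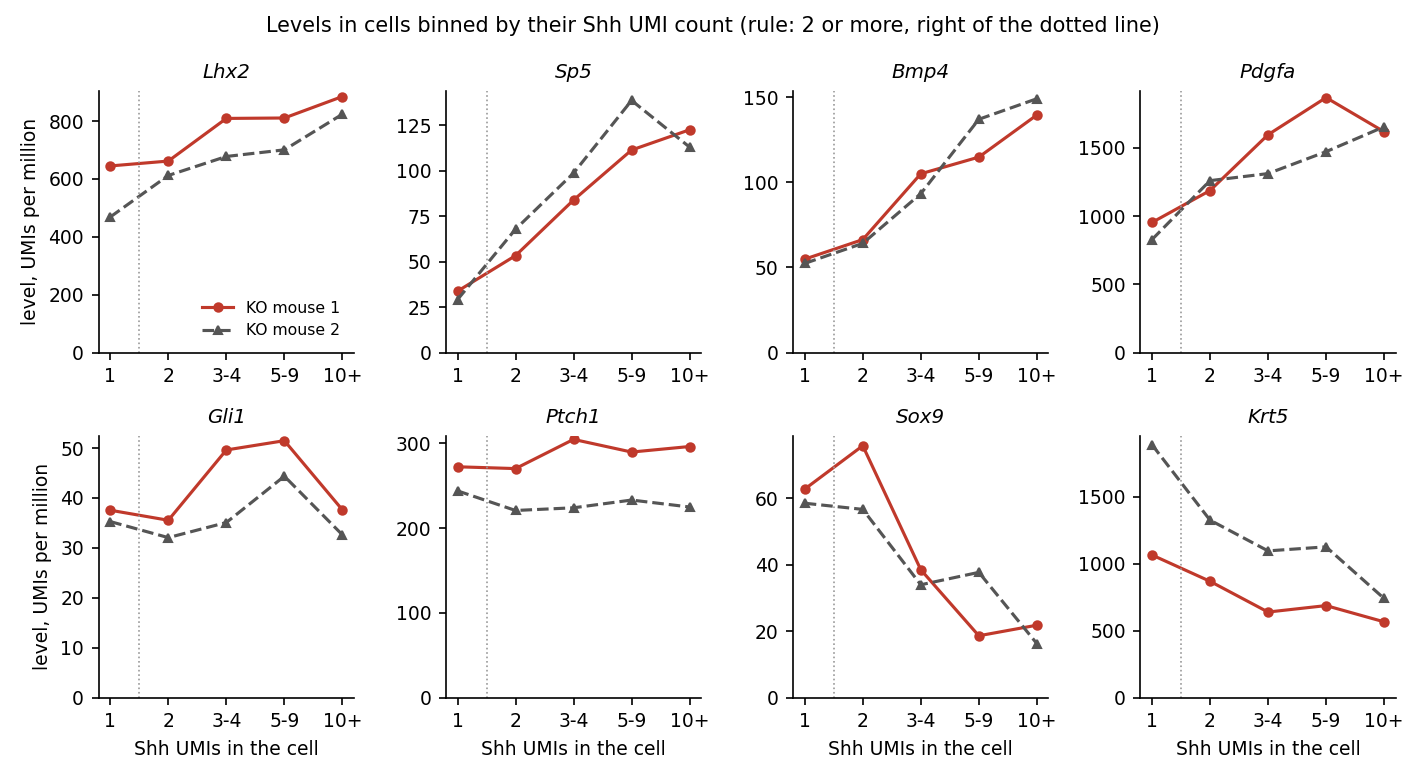
Levels of 8 genes (CPM without further scaling, linear axis from 0) in cells binned by their Shh UMI count, with 1 line per mouse; cells left of the dotted line, with 1 Shh UMI, are outside the rule. Lhx2, Sp5, Bmp4, Pdgfa and Gli1 are higher in the bin of 5 to 9 Shh UMIs than in the bin of 2 in both mice, Sox9 and Krt5 are lower, and Ptch1 is close to level.

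To test the genes that the rule did not use, UMIs were summed per mouse over the Shh cells and over 3 groups without any Shh UMI. These were follicle cells without Shh (Lhx2 and Sox9 both detected, 2026 and 2881 of the 2037 and 2903 such cells under the keratin limit), Lhx2-negative basal keratinocytes (no Lhx2, at least 1% of UMIs from Krt5 and Krt14, 2032 and 3507 cells) and inner root sheath cells (at least 10 UMIs of 6 inner root sheath keratins, 122 and 207 cells). Their median depths were 11761 and 12026, 9727 and 9834, and 13844 and 15689 UMIs. The few cells with Lhx2 and Sox9 outside the follicle group were left out by a rule not given here. Its effect on the levels of sheath keratins in that group was not tested. All 8 sums were fitted together by the quasi-likelihood method of edgeR, p-values were adjusted over all genes tested after Benjamini and Hochberg, and 0.05 was the threshold. Genes that chose a group were not tested in its comparison, with 1 exception. The sheath keratins limited the follicle group and were still tested against it. All 3 comparisons share the 2 sums of Shh cells and so are not independent of each other. Cells with 1 Shh UMI were not compared, nor were Lhx2 cells with neither Shh nor Sox9 outside the inner root sheath group. A gene above every group here may therefore be present in those cells. Levels of single genes below are CPM after TMM scaling, given for KO mouse 1 and then KO mouse 2, and fold changes are log2 values of the Shh cells over the other group with their SE. Because the counts are of 3′ ends, a level of a gene is compared between groups of cells and not with the level of another gene.

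Against follicle cells without Shh, 2848 of 13077 genes (21.8%) passed the threshold, 1352 higher (10.3%) and 1496 lower (11.4%) in Shh cells. With the mouse as a block the count was 4663 (35.7%), 2468 higher (18.9%) and 2195 lower (16.8%). Against Lhx2-negative basal keratinocytes 5800 of 13071 genes (44.4%) passed, 3013 higher (23.1%) and 2787 lower (21.3%), and against inner root sheath cells 2492 of 13074 (19.1%), 1353 higher (10.3%) and 1139 lower (8.71%). With the block 55.3% of genes passed against basal keratinocytes, 28.5% higher and 26.8% lower, and 27.9% against inner root sheath cells, 13.9% higher and 14% lower. The median log2 fold change over all genes tested was 0.03, 0.02 and 0.02. The lists below were read against these shares, and counts with the block against the shares with the block.

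Among the genes that make and release the hedgehog ligands, Shh was the only ligand that could be followed, since Ihh and Dhh did not pass the filter on low counts. Scube1 and Scube3 encode secreted proteins of the family that carries lipid-modified Shh away from the cell. Scube1 was at 34.8 and 34.0 in Shh cells, at 0.878 and 0.687 in follicle cells without Shh, at 0.485 and 0.724 in basal keratinocytes and at 1.57 and 1.06 in inner root sheath cells. It was thus higher in the Shh cells of both mice than in these 3 groups, without overlap. Its log2 fold change was 5.47 ± 0.19 (adjusted p = 4.68e-07), 5.76 ± 0.20 (1.57e-07) and 4.79 ± 0.29 (1.88e-05) against the 3 groups in that order. Cells with 1 Shh UMI under the keratin limit, which are in none of the groups, held Scube1 too, at 14.1 and 8.13 CPM without TMM scaling. Scube3 was also higher than in follicle cells (3.15 ± 0.17) and basal keratinocytes (5.58 ± 0.22). Disp1, the transporter that exports Shh, was at 23.3 and 20.1 against 8.98 and 10.8 in follicle cells (1.12 ± 0.17, adjusted p = 0.00175).

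Other carriers went the other way. Scube2 was lower in Shh cells than in follicle cells (-2.06 ± 0.53, adjusted p = 0.0223) and than in basal keratinocytes (-3.74 ± 0.47), and Gpc4, a glypican, was lower than in follicle cells (-1.33 ± 0.14). Of the 8 tested genes of ligand release, 3 were higher and 3 lower than in follicle cells, with a median of -0.05, 2 were higher and 2 lower than in basal keratinocytes (median 0.17), and 4 were higher than in inner root sheath cells (median 1.20).

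The genes of hedgehog reception did not move together either. Ptch1, the main receptor and itself a target, was at 276 and 222 in Shh cells and at 255 and 256 in follicle cells without Shh, a difference that was not detectable (-0.03 ± 0.10, adjusted p = 0.847), while it was higher than in basal keratinocytes (0.66 ± 0.10, adjusted p = 0.000631) and than in inner root sheath cells (0.44 ± 0.11, adjusted p = 0.0187). Gpc3, a glypican that binds hedgehog proteins, was higher than in all 3 groups (0.78 ± 0.11, 2.00 ± 0.11 and 1.96 ± 0.13).

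The co-receptors Gas1, Cdon and Boc, which help cells to receive Shh, were lower than in follicle cells and basal keratinocytes. Gas1 was at 20.9 and 34.4 in Shh cells, at 173 and 180 in follicle cells without Shh and at 332 and 329 in basal keratinocytes, so that the Shh cells of both mice lay far below either group (-2.65 ± 0.23, adjusted p = 7.22e-05, and -3.55 ± 0.24, adjusted p = 4.93e-06). Before TMM scaling Gas1 was at 21.86 and 34.96 CPM in Shh cells, 74.97 and 72.25 in melanocyte-type cells and 21.11 and 38.68 in immune-type cells. The level of Gas1 in Shh cells did not stand above melanocyte-type cells, so the sizes of its fold changes are uncertain. Boc was lower than in follicle cells (-1.47 ± 0.16) and basal keratinocytes (-0.62 ± 0.17), and Cdon was lower than in basal keratinocytes (-2.86 ± 0.16) and follicle cells (-0.66 ± 0.18). Against inner root sheath cells the order was different, as Boc and Cdon were higher (1.16 ± 0.30, adjusted p = 0.0266, and 1.71 ± 0.40, adjusted p = 0.0174) and Gas1 did not pass the threshold (0.44 ± 0.31, adjusted p = 0.37). Hhip, a decoy receptor and pathway target, was at 0.155 and 0.422 against 3.78 and 2.61 in follicle cells (-3.32 ± 0.58, adjusted p = 0.00471). Of the 8 tested genes of hedgehog reception, 1 was higher (2 with the mouse as a block) and 4 lower than in follicle cells (median -0.35), 2 were higher and 3 lower than in basal keratinocytes (median 0.06), and 4 were higher and none lower than in inner root sheath cells (median 0.80, or 0.44 without Hhip, which was at 0 there). Smo, which carries the signal across the membrane, was at 129 and 115 in Shh cells and at 114 and 102 in follicle cells, which passed the threshold only with the mouse as a block (0.18 ± 0.10, adjusted p = 0.241 without and 0.0105 with it).

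Gli1, the activator whose transcription follows the pathway, was at 42.7 and 36.4 in Shh cells, 34.5 and 35.2 in follicle cells without Shh, 19.2 and 19.3 in basal keratinocytes and 29.4 and 23.0 in inner root sheath cells. It was higher than in basal keratinocytes (1.03 ± 0.11, adjusted p = 8.86e-05) and inner root sheath cells (0.63 ± 0.14, adjusted p = 0.015), and its difference from follicle cells did not pass the threshold (0.18 ± 0.11, adjusted p = 0.294). The calls of Gli1, Ptch1, Boc and Cdon against inner root sheath cells ended with cells under 5% mitochondrial UMIs only. They also ended when a single sum was left out. Gli2 was lower than in follicle cells (-1.23 ± 0.13) and basal keratinocytes (-1.12 ± 0.13). Of the 7 tested genes of hedgehog transcription 1 was higher and 1 lower than in follicle cells (median 0.25), 5 were higher and 1 lower than in basal keratinocytes (median 0.49), and 1 was higher than in inner root sheath cells (median 0.16). With the mouse as a block 3 were higher than in follicle cells and 2 than in inner root sheath cells.

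**Figure D2:**
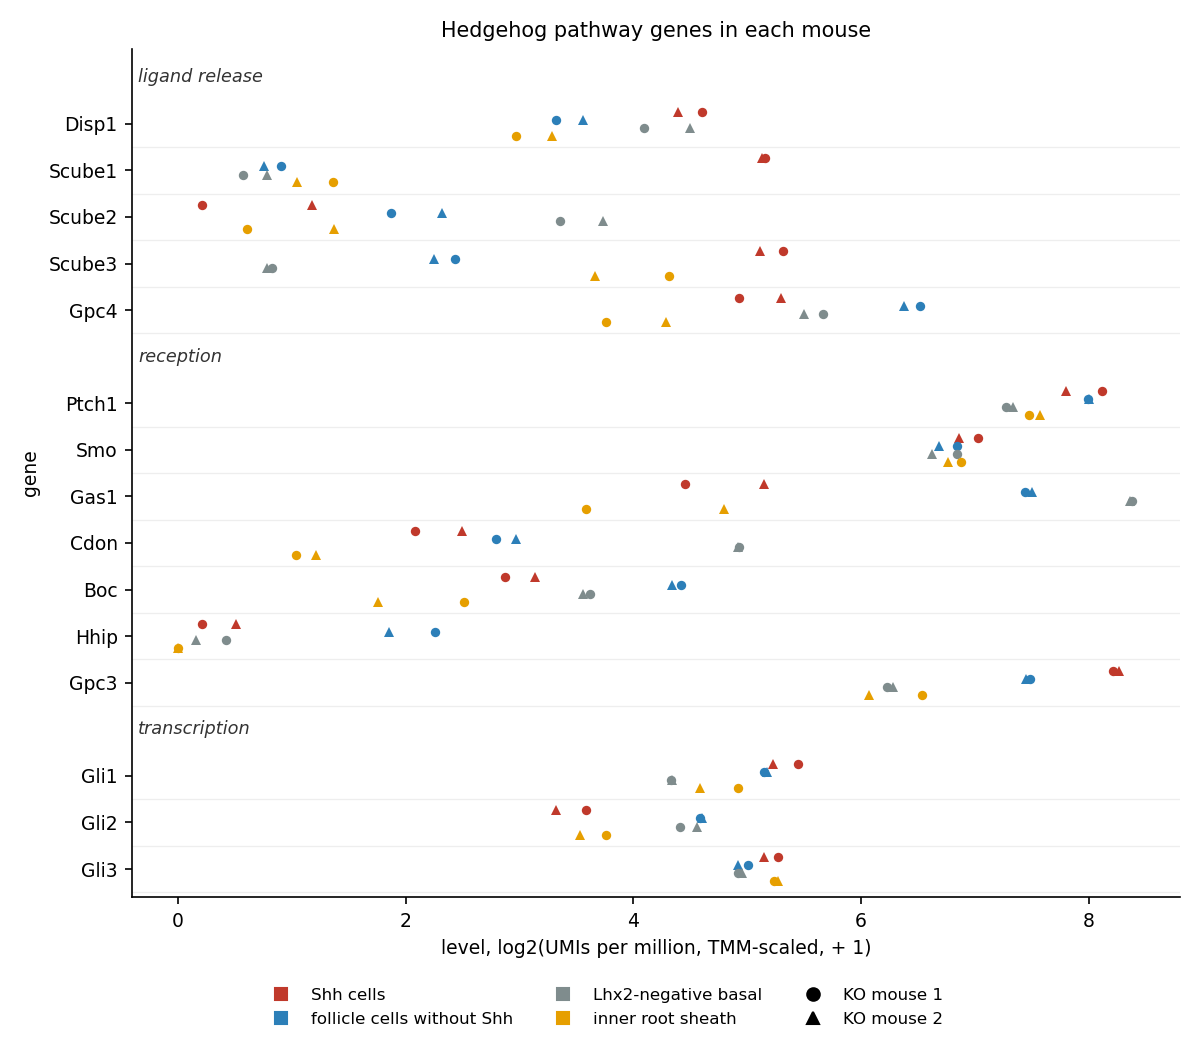
Levels of hedgehog genes (x axis, log2 of TMM-scaled CPM plus 1) in the 4 groups (colour) and both mice (circle, KO mouse 1; triangle, KO mouse 2), grouped by role. Scube1, Scube3 and Gpc3 lie to the right in Shh cells of both mice; Gas1, Cdon and Boc of Shh cells lie left of follicle and basal cells, and the Ptch1 points of Shh cells lie on both sides of those of follicle cells.

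Several targets of the Wnt pathway were higher in Shh cells. Sp5 (chr2:70474923-70477729) was at 84.5 and 102 in Shh cells, at 2.57 and 3.01 in follicle cells without Shh, at 0.582 and 0.753 in basal keratinocytes and at 5.24 and 2.65 in inner root sheath cells. In both mice the Shh cells were well above these other groups, by 5.06 ± 0.17 (adjusted p = 4.68e-07), 7.08 ± 0.20 (5.43e-08) and 4.72 ± 0.24 (8.14e-06). Cells with 1 Shh UMI under the keratin limit, outside all groups, held Sp5 at 33.7 and 29.1 CPM without TMM scaling. Thinned to 5000 UMIs, 35.4% and 39.0% of Shh cells held Sp5, against 1.32% and 1.43% of follicle cells and 2.33% and 3.08% of melanocyte-type cells. Notum, a secreted enzyme that inactivates Wnt proteins, was at 17.2 and 15.3 in Shh cells and at 0.270 and 0.237 in follicle cells (5.97 ± 0.45, adjusted p = 2.8e-05).

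Sp5 and Edar are shown with the bases before their start because both genes were higher than in all 3 groups and their promoters hold the letters CTTTGA, the core of the motif that Tcf and Lef factors bind. Of 16 genes looked up in RefSeq 12 were matched, and of these only Sp5, Edar and 1 of 4 starts of Lef1 hold these letters. The sequences are of GRCm38.p6, 250 bases before the start and 5′ to 3′ on the gene's strand, and capitals mark the motif on either strand (TCAAAG is its reverse complement).
Sp5, chr2:70474673-70474922, plus strand: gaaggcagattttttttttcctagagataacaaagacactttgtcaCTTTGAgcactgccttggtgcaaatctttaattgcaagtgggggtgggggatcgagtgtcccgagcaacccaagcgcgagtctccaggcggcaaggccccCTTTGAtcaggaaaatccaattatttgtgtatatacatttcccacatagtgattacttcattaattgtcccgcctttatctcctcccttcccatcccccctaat
Edar, chr10:58675697-58675946, minus strand: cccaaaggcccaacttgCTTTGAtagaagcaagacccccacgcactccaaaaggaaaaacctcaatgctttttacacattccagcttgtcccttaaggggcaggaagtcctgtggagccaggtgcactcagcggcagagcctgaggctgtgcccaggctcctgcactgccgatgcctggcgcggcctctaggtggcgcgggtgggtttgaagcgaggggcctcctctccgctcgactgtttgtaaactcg
Sp5 holds 2 matches and Edar 1, and 13.8% of all 32851 promoters of this length hold at least 1. The match describes these letters and says nothing of binding in these cells. The letters ACCACCC, the core of the Gli motif, occur in 3.92% of all promoters and in neither of these.

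Other Wnt targets were higher to a lesser degree. Lef1, the Tcf/Lef factor of placode and matrix, was at 143 and 146 in Shh cells and at 30.5 and 37.2 in follicle cells (2.09 ± 0.15, adjusted p = 2.18e-05), but at 112 and 126 in basal keratinocytes and at 147 and 103 in inner root sheath cells, and these differences did not pass the threshold; with the mouse as a block the difference from basal keratinocytes did (0.28 ± 0.14, adjusted p = 0.143 without and 0.0353 with it). Axin2, a feedback inhibitor, was higher than in all 3 groups (1.33 ± 0.11, 0.54 ± 0.11 and 1.06 ± 0.14). Nkd1, another feedback inhibitor, was higher by 2.57 ± 0.18 than in follicle cells and by 5.29 ± 0.24 than in basal keratinocytes. Lgr5, a Wnt-potentiating receptor of follicle progenitors, was lower than in follicle cells (16.8 and 19.6 against 78.4 and 72.6, -2.04 ± 0.15) and higher than in basal keratinocytes (3.55 ± 0.21). Of the 17 tested genes of Wnt feedback and targets, 11 were higher and 2 lower than in follicle cells (median 0.88), 11 higher and 1 lower than in basal keratinocytes (median 0.68), and 7 higher and 1 lower than in inner root sheath cells (median 0.45).

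Several Wnt ligands were made at higher levels as well. Wnt10b was at 29.1 and 27.9 in Shh cells, 2.03 and 2.39 in follicle cells without Shh, 9.12 and 10.2 in basal keratinocytes and 5.77 and 2.12 in inner root sheath cells, above every other group in both mice (3.67 ± 0.20, 1.55 ± 0.17 and 3.06 ± 0.30). Wnt3 and Wnt10a were higher than in follicle cells (2.66 ± 0.21 and 2.22 ± 0.18), and Wnt6 was higher than in follicle cells and basal keratinocytes (1.22 ± 0.09 and 0.55 ± 0.09). Wnt7b and Wnt4 were prominent in basal keratinocytes, where Wnt7b was at 127 and 129 against 13.9 and 20.8 in Shh cells (-2.86 ± 0.18) and Wnt4 was at 845 and 832 against 231 and 242 (-1.83 ± 0.11). Of the 14 tested genes for Wnt ligands and their release, 8 were higher and 2 lower than in follicle cells (median 1.03), 3 higher and 5 lower than in basal keratinocytes (median -0.01), and 6 higher and 2 lower than in inner root sheath cells (median 1.12).

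Edar, the receptor of ectodysplasin A, was at 38.6 and 33.1 in Shh cells, 10.6 and 10.7 in follicle cells without Shh, 4.90 and 4.86 in basal keratinocytes and 12.1 and 11.7 in inner root sheath cells. Shh cells were the highest in both mice (1.75 ± 0.11, adjusted p = 1.19e-05, 2.87 ± 0.12, 4.07e-07, and 1.60 ± 0.15, 0.000197). Tnfrsf19, a related receptor, was higher by 2.21 ± 0.13 than in follicle cells, and Nfkbia, an inhibitor and target of NF-κB, by 1.71 ± 0.19. Of the 8 tested genes of the ectodysplasin pathway 6 were higher and none lower than in follicle cells (median 1.71), 4 were higher and 1 lower than in basal keratinocytes (median 0.51), and 5 were higher and 1 lower than in inner root sheath cells (median 1.07, or 0.77 with Eda2r, at 0 there, set against a floor of 3 counts over the group). The 2 that did not pass against follicle cells were Edaradd, the adaptor of Edar, with 29.5 and 36.8 in Shh cells and 26.0 and 32.5 in follicle cells, and Eda2r, which was under 1 in all groups.

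The Bmp ligands Bmp2, Bmp4 and Bmp7 were higher in Shh cells than in all 3 groups. Bmp4 (chr14:46383520-46390669) was at 97.2 and 103 in Shh cells, 5.74 and 5.90 in follicle cells without Shh, 1.02 and 1.48 in basal keratinocytes and 51.4 and 38.9 in inner root sheath cells. Bmp2 was at 116 and 105, against 7.46 and 8.20, 37.8 and 33.9, and 9.44 and 9.27 in the same groups. Shh cells thus had the most of both ligands in either mouse, by 4.10 ± 0.14 and 3.82 ± 0.11 over follicle cells (adjusted p = 4.68e-07 and 3.71e-07), while inner root sheath cells came nearer in Bmp4 (1.18 ± 0.14) than in Bmp2 (3.57 ± 0.14). Bmp7 was higher by 1.38 ± 0.08, 1.19 ± 0.08 and 2.08 ± 0.09 in the 3 comparisons.

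The antagonists and targets of Bmp lay on both sides. Sostdc1, a secreted antagonist of Bmp and Wnt, was at 45.6 and 60.8 in Shh cells and at 479 and 437 in follicle cells (-3.10 ± 0.14, adjusted p = 1.8e-06), and follistatin (Fst) was lower than in follicle cells and basal keratinocytes (-0.56 ± 0.07 and -1.01 ± 0.07). Both antagonists were higher than in inner root sheath cells (0.75 ± 0.17 and 2.01 ± 0.08). Before TMM scaling Sostdc1 was at 47.8 and 61.8 CPM in Shh cells, 49.4 and 68.4 in melanocyte-type cells and 84.4 and 34.8 in immune-type cells. Its level in Shh cells did not stand above melanocyte-type cells, so the sizes of its fold changes are uncertain. Smad6 and Smad7, inhibitors that Bmp signalling induces, and the target Msx1 were higher than in follicle cells (1.11 ± 0.28, 1.62 ± 0.12 and 2.86 ± 0.34) and than in basal keratinocytes (2.96 ± 0.34, 2.03 ± 0.13 and 4.20 ± 0.41). The target Id1 was at 42.0 and 44.0 in Shh cells and 41.8 and 51.7 in follicle cells, and Id3 at 86.6 and 69.4 and at 92.0 and 78.4, with neither difference past the threshold. Id1 and Id3 were higher than in basal keratinocytes (0.62 ± 0.12 and 0.58 ± 0.12) and lower than in inner root sheath cells (-1.15 ± 0.13 and -1.35 ± 0.12). Of the 15 tested genes of the Bmp pathway 7 were higher and 2 lower than in follicle cells (median 0.39), 10 higher and 3 lower than in basal keratinocytes (median 0.61), and 6 higher and 4 lower than in inner root sheath cells (median 0.23).

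Of the 9 tested genes of the Notch pathway, Jag1, a ligand, and Notch1, a receptor, were higher than in follicle cells (1.06 ± 0.20 and 0.88 ± 0.09; median of the list 0.18). Against basal keratinocytes 2 were higher and 3 lower (median 0.13), and against inner root sheath cells 1 was higher and 2 lower (median -0.06).

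Shh cells also held transcripts of signals that epithelium sends to dermis, nerve and melanocytes. Pdgfa, a growth factor for dermal fibroblasts and the dermal papilla, was at 1495 and 1359 in Shh cells, 532 and 536 in follicle cells without Shh, 379 and 390 in basal keratinocytes and 215 and 165 in inner root sheath cells. The Shh cells of both mice were above all others (1.42 ± 0.11, adjusted p = 3.3e-05, 1.89 ± 0.11, 2.31e-06, and 2.92 ± 0.12, 3.88e-06). Kitl, the ligand of Kit on melanocytes, was higher than in all 3 groups (0.72 ± 0.08, 1.36 ± 0.09 and 0.84 ± 0.10), and Tgfb2 was higher than in follicle cells (0.81 ± 0.09) and in basal keratinocytes, where it was at 6.84 and 6.34 against 142 and 127 in Shh cells (4.36 ± 0.10).

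Fgf20, a growth factor that placodes send to the dermal condensate, was low in the sums, at 2.32 and 3.17 in Shh cells, and lower in follicle cells without Shh, at 0 and 0.0948, in basal keratinocytes, at 0.0485 and 0.347, and in inner root sheath cells, where it was at 0 in both mice; it was too rare there for a fold change. Sema3e, Inhbb and Pthlh, secreted factors, were lower than in follicle cells (-3.19 ± 0.24, -3.23 ± 0.29 and -2.43 ± 0.26). Of the 20 tested genes for signals to other cells 7 were higher and 8 lower than in follicle cells (median -0.39), 10 were higher and 5 lower than in basal keratinocytes (median 0.52), and 10 were higher and none lower than in inner root sheath cells (median 1.32); the other 10 there did not pass the threshold. Fgf20 is among the genes counted as higher in each of these comparisons, although it was at or near 0 in the other group.

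**Figure D3:**
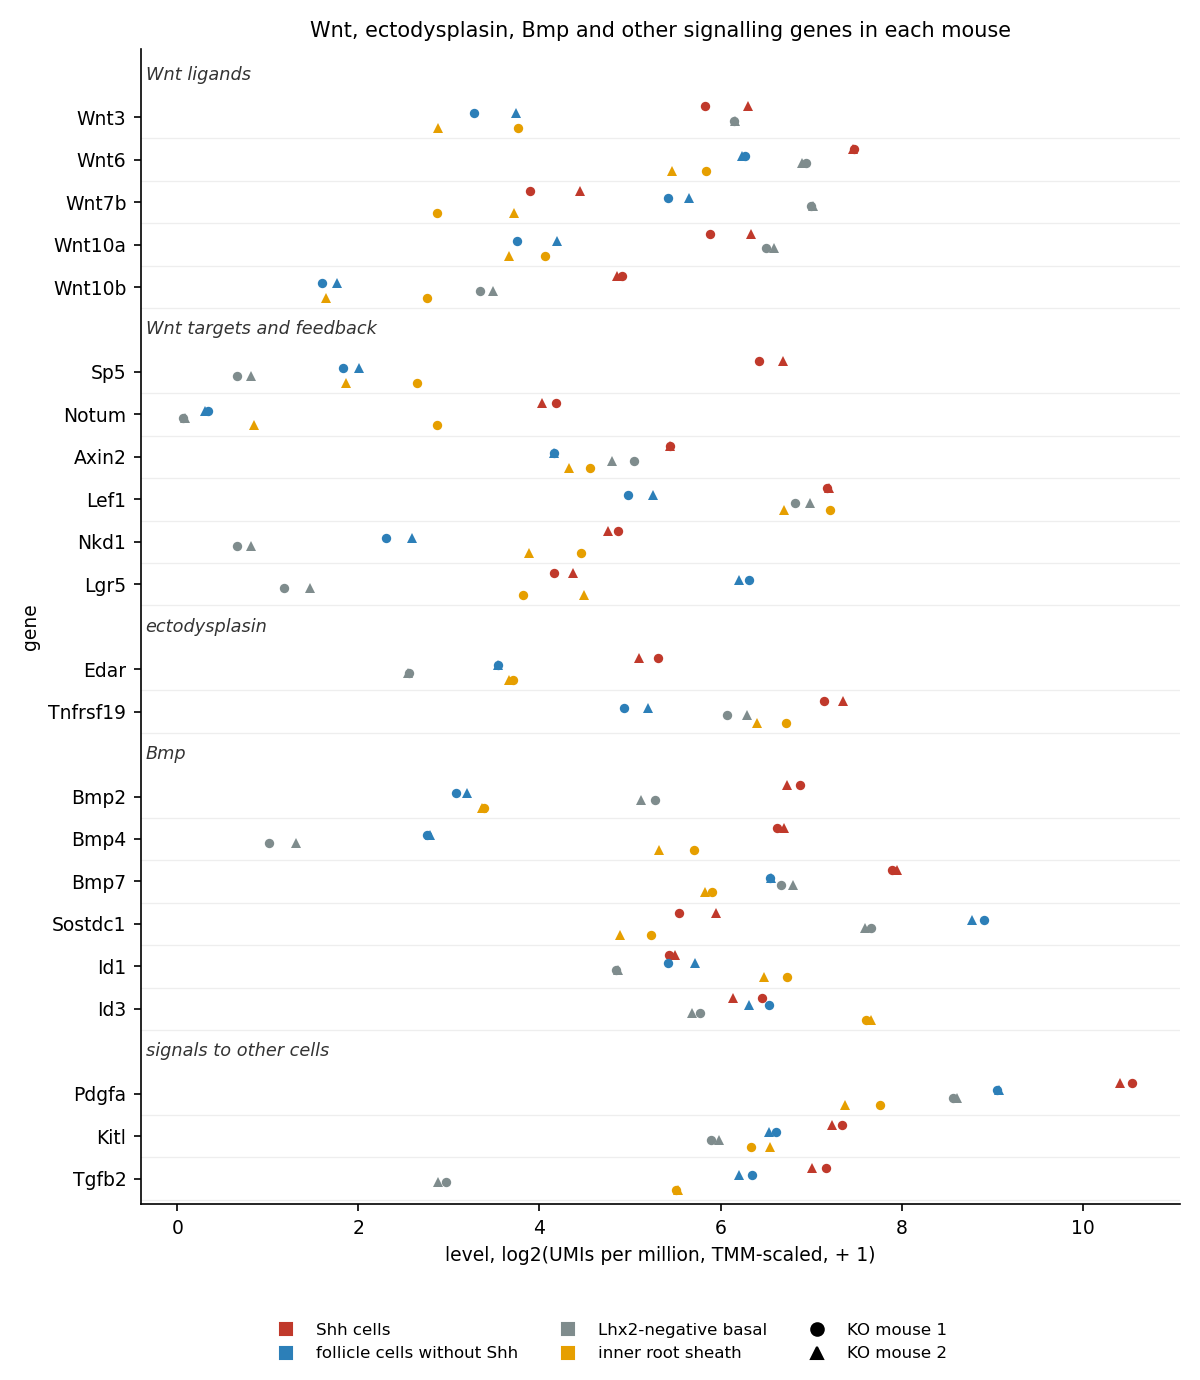
Levels of Wnt, ectodysplasin, Bmp and other signalling genes (x axis, log2 of TMM-scaled CPM plus 1) in the 4 groups (colour) and both mice (circle, KO mouse 1; triangle, KO mouse 2). Sp5, Notum, Wnt10b, Edar, Bmp2, Bmp4, Bmp7 and Pdgfa lie furthest to the right in the Shh cells of both mice, and Sostdc1 and Lgr5 of follicle cells lie to the right of those of Shh cells.

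Among the transcription factors of the hair follicle, some were higher in Shh cells than in follicle cells, which were themselves chosen by Sox9, and about as many were lower. Sox21, a factor of the hair shaft, was at 149 and 132 against 12.7 and 13.6 (3.41 ± 0.15, adjusted p = 1.53e-06). Msx2 and Dlx3, homeobox factors of the matrix, were higher by 2.83 ± 0.16 and 2.50 ± 0.17, Hoxc13, which drives hair keratins, by 1.79 ± 0.12 and Cux1, a factor of the inner root sheath lineage, by 1.71 ± 0.10. Barx2 was at 42.0 and 47.7 against 427 and 357 (-3.12 ± 0.20), and Tbx1 and Nfatc1, factors of stem cells of the follicle, were lower too (-2.94 ± 0.19 and -2.59 ± 0.11). Prdm1 was lower as well (-3.03 ± 0.33). Before TMM scaling Barx2 was at 44.1 and 48.5 CPM in Shh cells, 49.4 and 56.4 in melanocyte-type cells and 55.3 and 33.5 in immune-type cells. The level of Barx2 in Shh cells did not stand above melanocyte-type cells, so the size of its fold change is uncertain.

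The order was different against inner root sheath cells. There Msx2 was lower in Shh cells, at 35.5 and 27.4 against 90.2 and 82.9 (-1.46 ± 0.15), as were Dlx3 (-1.49 ± 0.17), Cux1 (-1.09 ± 0.10), Foxn1, a factor of hair differentiation (-2.09 ± 0.34), and Foxe1 (-2.42 ± 0.21). Lhx2 was higher, at 744 and 669 against 321 and 364 (1.04 ± 0.09, adjusted p = 0.000232). For Msx2, Dlx3, Cux1 and Foxn1 the Shh cells thus lay between follicle cells without Shh and inner root sheath cells in both mice, while Foxe1 was lower in Shh cells than in either (-0.99 ± 0.19 against follicle cells). Sox9 was at 38.9 and 39.5 in Shh cells and at 42.9 and 34.6 in basal keratinocytes, which was not a detectable difference (0.02 ± 0.14). Of the listed factors 10 of 28 tested were higher and 11 lower than in follicle cells (median -0.05), 14 of 29 higher and 4 lower than in basal keratinocytes (median 0.95), and 11 of 30 higher and 7 lower than in inner root sheath cells (median 0.18).

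Keratins of the inner root sheath and hair shaft were present in part of the Shh cells. Krt28, an inner root sheath keratin, was at 235 and 202 in Shh cells, 8.03 and 10.3 in follicle cells without Shh and 859 and 748 in inner root sheath cells, which were chosen by it and 5 other keratins. The difference from follicle cells was 4.57 ± 0.29 (adjusted p = 1.19e-05). Follicle cells without Shh were limited to under 10 UMIs of these 6 keratins and Shh cells were not. The differences of these keratins from follicle cells are therefore not independent of how the cells were chosen. Krt27, Krt73 and Krt25 were higher too (3.47 ± 0.25, 3.64 ± 0.38 and 2.79 ± 0.61), as were the shaft keratin Krt35, at 203 and 93.3 against 5.06 and 4.29 (4.98 ± 0.67), and Mt4, a metallothionein (5.09 ± 0.44). Other genes of the list were lower: the inner root sheath keratin Krt71 was at 2.47 and 5.28 against 11.3 and 11.7 (-1.50 ± 0.41, adjusted p = 0.029), Tchh, trichohyalin, was at 6.95 and 7.60 against 12.2 and 14.3 (-0.86 ± 0.13, adjusted p = 0.00161), and Selenbp1 was the third. With at least 1 Shh UMI as the rule, Krt71 and Tchh changed sign (1.48 and 1.63). With cells of 8000 to 30000 UMIs only, the differences of Krt25 and Krt73 no longer passed the threshold. Of 14 tested genes of matrix, sheath and shaft, 9 were higher and 3 lower than in follicle cells (median 2.93), 6 of 9 higher and 2 lower than in basal keratinocytes (median 2.41), and 1 of 9 higher and 4 lower than in inner root sheath cells (median -1.66). The counts and median against follicle cells include Krt25, Krt27, Krt28, Krt73 and Krt71, keratins that limited that group.

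The keratins of basal and outer layers had no common direction over the 3 comparisons. Krt15, a keratin of basal and bulge cells, was at 987 and 896 in Shh cells, 1783 and 1646 in follicle cells without Shh, 5633 and 4436 in basal keratinocytes and 267 and 336 in inner root sheath cells (-0.86 ± 0.13, -2.42 ± 0.14 and 1.64 ± 0.14), so that the groups lay apart in both mice. Krt5 was lower than in follicle cells (-1.24 ± 0.24), with a wide gap between mice, 674 and 1121, and Krt14 was at 1401 and 2474 against 3188 and 3798 (-0.85 ± 0.25, adjusted p = 0.0386). Without TMM scaling Krt5 was at 706 and 1139 CPM in Shh cells. It was at 478 and 758 in melanocyte-type cells and at 510 and 813 in immune-type cells that were not Shh cells. The part of free RNA in the keratin levels was not tested. Of the 9 tested keratins 5 were lower and none higher than in follicle cells (median -0.85), 2 of 7 were lower and 1 higher than in basal keratinocytes (median -1.12), and 4 of 9 were higher than in inner root sheath cells (median 0.80). The 1 higher than in basal keratinocytes, and 1 of the 4, was Krt8, which was at 1.70 and 2.01 in Shh cells, at 0.0485 and 0.289 in basal keratinocytes and at 0 in both sums of inner root sheath cells, so that this call rests on a count of 0. With the mouse as a block 4 keratins were lower than in basal keratinocytes.

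In the adhesion genes, P-cadherin and E-cadherin went opposite ways. Cdh3 was at 194 and 169 in Shh cells and at 109 and 101 in follicle cells (0.79 ± 0.13, adjusted p = 0.00214), whereas Cdh1 was at 66.1 and 61.1 against 132 and 118 (-0.98 ± 0.10, adjusted p = 0.000163). Both also held against basal keratinocytes (0.81 ± 0.13 and -1.45 ± 0.10). Col17a1 and Dst, components of hemidesmosomes, were lower than in follicle cells (-1.74 ± 0.17 and -1.14 ± 0.11) and lower still against basal keratinocytes (-3.39 ± 0.18 and -1.85 ± 0.11). Without TMM scaling Col17a1 was at 37.4 and 50.2 CPM in Shh cells and 45.5 and 46.6 in melanocyte-type cells, so the sizes of its fold changes are uncertain. Of the 16 tested adhesion and basement membrane genes 4 were higher and 6 lower than in follicle cells (median -0.21), 4 higher and 9 lower than in basal keratinocytes (median -0.60), and 11 higher and 1 lower than in inner root sheath cells (median 0.67). Of 10 tested genes of interfollicular differentiation 5, 6 and 4 were lower in the 3 comparisons and none was higher (medians -0.53, -0.93 and -0.93). With the mouse as a block 7 were lower than in inner root sheath cells. The rule limited Krt1 and Krt10 in Shh cells, so these counts are not independent of it. Krtdap, before TMM scaling, was at 87.3 and 233 CPM in Shh cells, 160 and 464 in melanocyte-type cells and 352 and 285 in immune-type cells.

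**Figure D4:**
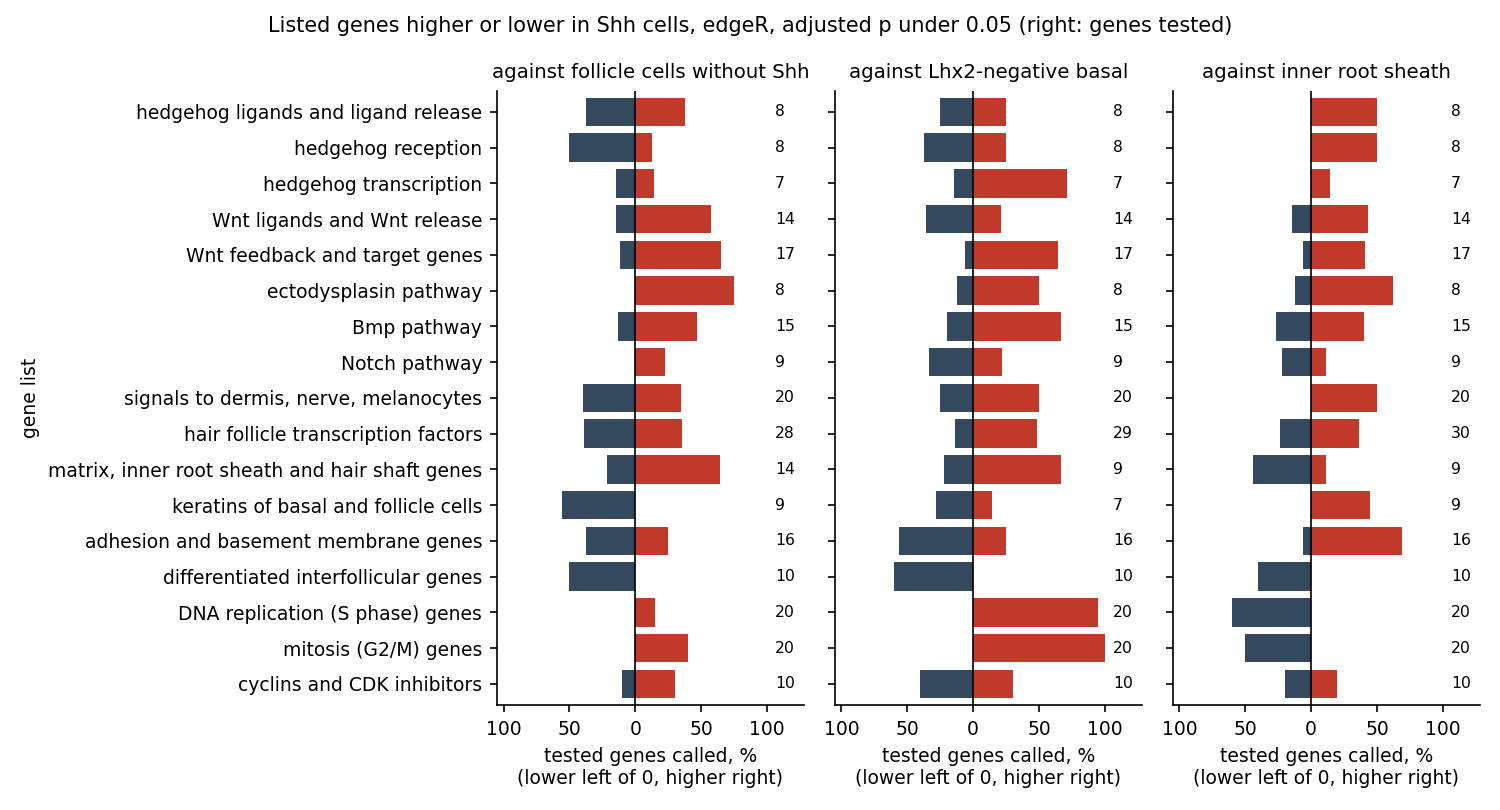
Share of the tested genes of each list (percent, x axis) that were higher (red, right of 0) or lower (dark, left of 0) in Shh cells by edgeR's quasi-likelihood test at an adjusted p under 0.05, with the number tested at the right of each panel. All 20 mitosis genes are higher than in basal keratinocytes, 8 are higher than in follicle cells without Shh, and 10 are lower than in inner root sheath cells.

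Shh cells carried more cell cycle transcripts than basal keratinocytes and fewer than inner root sheath cells. Mki67, a marker of cycling cells, was at 337 and 304 in Shh cells, 250 and 229 in follicle cells without Shh, 114 and 107 in basal keratinocytes and 517 and 532 in inner root sheath cells. In both mice the Shh cells lay between follicle cells without Shh and inner root sheath cells, with differences of 0.42 ± 0.08 (adjusted p = 0.0059), 1.54 ± 0.08 (1.57e-06) and -0.71 ± 0.08 (0.000586), the first of which did not pass the threshold with cells of 8000 to 30000 UMIs only. Of 20 mitosis genes 8, 20 and 0 were higher in the 3 comparisons and 0, 0 and 10 lower, with medians of 0.33, 1.22 and -0.37. Of 20 DNA replication genes 3, 19 and 0 were higher and 0, 0 and 12 lower, with medians of 0.17, 0.85 and -0.53. With the mouse as a block 19 mitosis and 10 replication genes were higher than in follicle cells and 2 replication genes lower, and 17 mitosis and 16 replication genes were lower than in inner root sheath cells.

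The shares of cells were in the same order. With every cell thinned to 5000 UMIs, 61.5% of Shh cells in KO mouse 1 and 51.1% in KO mouse 2 held at least 3 UMIs of the mitosis genes, against 46.1% and 44.9% of follicle cells without Shh, 16.4% and 18.5% of basal keratinocytes and 81.0% and 85.4% of inner root sheath cells. Before thinning the shares of Shh cells were 71.1% and 62.8%. Ccnd1 and Ccnd2, D cyclins that start the cycle, were higher than in follicle cells (0.55 ± 0.13 and 1.15 ± 0.17), and Mycn was at 37.6 and 36.2 in Shh cells against 2.77 and 3.21 in basal keratinocytes (3.60 ± 0.12). Of the 10 tested cyclins and inhibitors 3 were higher and 1 lower than in follicle cells (median 0.06), 3 higher (5 with the block) and 4 lower than in basal keratinocytes (median 0.15), and 2 higher and 2 lower than in inner root sheath cells (median -0.21).

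By a fixed rule of size (called genes with the largest fold changes, in the same direction in both mice and with at least 20 CPM in the higher group), the genes most raised over follicle cells included, beside those above, Cnr1, a cannabinoid receptor, at 32.8 and 27.7 against 1.32 and 0.853 (4.82 ± 0.25), Sfrp2 and Wif1, secreted inhibitors of Wnt (4.55 ± 0.29 and 4.19 ± 0.18), Limch1 (4.29 ± 0.24) and the transcription factor Ascl4 (4.24 ± 0.21). Those most reduced included Cyp2g1 (-5.43 ± 0.23), Cidea, a lipid droplet protein of sebocytes (-3.89 ± 0.44), Sfrp1, another Wnt inhibitor, at 1.55 and 5.28 against 45.2 and 50.4 (-3.69 ± 0.28), Elmo1 (-3.35 ± 0.15), Col9a3 (-3.23 ± 0.17) and Sgk1, a kinase (-3.00 ± 0.41). With at least 1 Shh UMI as the rule, the Cyp2g1 difference was much smaller and did not pass the threshold. Inhibitors of Wnt were thus found on either side, Sfrp2 and Wif1 among the highest and Sfrp1 among the lowest.

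Against basal keratinocytes the same rule gave, beside Sp5, Bmp4, Scube1 and Scube3, the enzyme Gxylt2, at 70.9 and 85.6 against 0.582 and 0.637 (6.98 ± 0.21), Wif1 (6.75 ± 0.24), Sfrp2 (6.64 ± 0.37), Sox13 (6.22 ± 0.15), Cnr1 (5.93 ± 0.28) and Hoxc13 (5.62 ± 0.16). The most reduced were Myof (-4.27 ± 0.32), Ahnak2 (-4.20 ± 0.23), the imprinted Igf2 and H19 (-4.19 ± 0.31 and -4.02 ± 0.44), Defb1 (-3.98 ± 0.22), Dlk2 (-3.81 ± 0.22), Serpinb10 (-3.78 ± 0.33) and the stefin family members Stfa1, BC100530 and Stfa3 (-3.95 ± 0.68, -3.79 ± 0.67 and -3.74 ± 0.68). The last 3 are near copies of each other, and how reads were divided among them is uncertain. They also differed between mice in the Shh cells, as with Stfa3 at 39.3 and 181.

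Against inner root sheath cells the genes most raised were Cnr1, at 0.524 and 0 there and so without a fold change that can be relied on, Limch1 (5.30 ± 0.43), Galnt12 (4.78 ± 0.23), Fam13a (4.66 ± 0.29), Spo11 (3.99 ± 0.30), Sfrp2 (3.98 ± 0.45) and Pde4d (3.56 ± 0.18), beside Scube1, Sp5 and Bmp2. The most reduced were the homeobox genes Msx1 (-3.03 ± 0.28) and Dlx4 (-2.30 ± 0.20), Krt75, a keratin of the companion layer (-2.77 ± 0.75), Cldn10 (-2.52 ± 0.34), Foxe1, Wnt5a, a Wnt ligand at 14.4 and 12.1 against 77.1 and 64.1 (-2.41 ± 0.18), Paqr5 (-2.29 ± 0.11), Slc16a7 (-2.27 ± 0.15), Prnp (-2.25 ± 0.12) and Tchh, trichohyalin of the inner root sheath (-2.18 ± 0.15). The Tchh difference changed sign, to 0.35 with at least 1 Shh UMI and to 0.27 with cells of 8000 to 30000 UMIs only, and did not pass the threshold there.

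Markers of other cell types were counted in the same groups. The 5 melanocyte markers summed to 129 and 155 CPM, without TMM scaling, in Shh cells, 95.9 and 127 in follicle cells without Shh, 38.9 and 45.3 in basal keratinocytes and 38.9 and 48.0 in inner root sheath cells, and in Shh cells Dct was at 47.6 and 72.7 and Pmel at 58.5 and 57.8. All 5 were higher than in basal keratinocytes, 4 than in inner root sheath cells and 1, Pmel, than in follicle cells (0.51 ± 0.11; 3 with the mouse as a block). A total of 4 and 13 Shh cells met the rule for melanocyte-type cells. With the melanocyte-type and immune-type cells left out of every group, an alternative chosen after seeing the data, 2896, 5852 and 2480 genes were called in the 3 comparisons, close to the counts with them. The Pmel difference from follicle cells no longer passed the threshold there.

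The 6 Langerhans cell markers summed to 75.3 and 18.6, led by Cd74 at 34.3 and 8.47, and none of the 5 tested was called against follicle cells. Cd207 was at 0, but it held only 6 and 0 UMIs in the immune-type cells that were not Shh cells, so its absence says little here. In KO mouse 1, 2 of the 388 Shh cells held 417 of the 465 UMIs of these markers, 246 and 171 each, and in KO mouse 2 a single cell held 89 of 173. Without the 2 highest cells of each mouse the sums were 7.82 and 8.72, with Cd74 at 6.84 and 7.43, so that the gap between the mice lay in these few cells. The T cell markers summed to 0.486 and 0.322 with Cd3e at 0, against 5.86 and 6.69 in follicle cells, and 2 of 3 tested were lower than there. Merkel cell markers summed to 4.05 and 3.86 and neither of the 2 tested was called against follicle cells (1 was higher with the mouse as a block); in basal keratinocytes both were near 0, so that their calls as higher there compare low counts with almost none. Dermal markers summed to 11.5 and 12.8, led by Col1a2 at 6.32 and 6.43, with Pdgfra at 0, and of the 3 tested Lum and Col1a1 were higher (1.99 ± 0.39 and 1.45 ± 0.36) and Col1a2 lower than in follicle cells. Endothelial markers summed to 0.810 and 0.643 with Cdh5 and Kdr at 0. The 4 sebaceous markers summed to 20.2 and 33.2 against 168 and 194 in follicle cells, and all 4 were lower there (median -3.27), as were the 4 upper follicle markers (median -1.37). The part of sebaceous and upper follicle cells within the follicle group in these differences was not tested.

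The Shh cells were not uniform. Leiden clustering of the 988 cells on genes other than Shh, Krt1 and Krt10 gave 7 clusters, all with cells of both mice. They are described by their leading genes without a test, since the same cells made the clusters and gave the values, and their levels are CPM without TMM scaling.

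Cluster 2, the largest with 262 cells, was led by Fam13a, Cnr1, Galnt12 and Spo11 and held the most Shh, 488, with Sp5 at 189, Bmp2 at 223, Wnt10b at 53.1 and Pdgfa at 2283. Cell cycle transcripts were low in it, with Mki67 at 27.0 and Top2a at 27.0. Cluster 4, with 251 cells, was led by mitosis genes, with Top2a at 702 and Mki67 at 589, and had Shh at 294 and Lhx2 at 960. Cluster 1, with 156 cells, was led by Ung, Gxylt2 and Gins2, of which Ung and Gins2 act in DNA repair and replication. Bmp4 was at 102, 107 and 124 in clusters 1, 2 and 4, and at 124 in cluster 3.

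Cluster 3, with 148 cells, held most of the inner root sheath keratin, with Krt28 at 750 against 33.5 in cluster 2, and Krt25 at 151, Krt35 at 308, Cux1 at 685 and Msx2 at 71.8. It had less Lhx2, at 440, and less Sp5, at 20.6. It was led by Krt79, at 1389, which is better known from the upper follicle. Cluster 6, with only 34 cells, had the highest Lef1, at 314, Bmp2 at 252, Edar at 72.0 and Fgf20, its leading gene, at 72.0 against 1.51 in the other Shh cells, but Bmp4 at 3.27 and Mki67 at 3.27. Bmp2 and Bmp4 thus parted in this cluster, and it was also led by Postn, Phlda1 and Dcn, of which Postn and Dcn are better known from the dermis, and had Krt14 at 5242. Dcn was also at 705 in the other Shh cells, and the paper describes higher Dcn in a basal keratinocyte cluster, basal 2, of these mice. Over all Shh cells the dermal markers Col1a1, Col1a2, Col3a1, Lum and Pdgfra held 33, 99, 1, 57 and 0 UMIs. The part of dermal RNA in cluster 6 was not tested.

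Cluster 5, with 123 cells, was led by H19, Sostdc1, Barx2 and Col17a1 and had Krt5 at 2371 and Sox9 at 88.9, which are genes of follicle cells without Shh and of basal keratinocytes. Scrublet, a doublet caller, marked 43 of these cells at the score used, and the median depth was 18950 UMIs. Cluster 7, with 14 cells, was led by Pmel and Dct, all 14 met the rule for melanocyte-type cells, and 9 were called doublets, at a median of 22910 UMIs. Over all Shh cells the calls were 12 in KO mouse 1 and 47 in KO mouse 2, and 2978, 5939 and 2509 genes were called in the 3 comparisons with doublets removed. Clusters 5 and 7 thus held most of the calls, and the part of doublets in their genes was not tested. The shares of the clusters differed between the mice: cluster 4 made up 32.5% of the Shh cells of KO mouse 1 and 20.8% of those of KO mouse 2, cluster 1 made up 11.9% and 18.3%, cluster 5 made up 8.76% and 14.8%, and cluster 7 made up 0.773% and 1.83%. Cluster 5 had high Krt5 and Krt14, at 2371 and 4206, and its larger share in KO mouse 2 went with the higher levels of both keratins in that mouse. Both keratins were also higher in KO mouse 2 in melanocyte-type cells that were not Shh cells, with Krt14 at 873 and 1540 and Krt5 at 478 and 758. In immune-type cells Krt14 was at 938 and 1658 and Krt5 at 510 and 813. The part of cluster 5 or of free RNA in that gap was not tested.

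**Figure D5:**
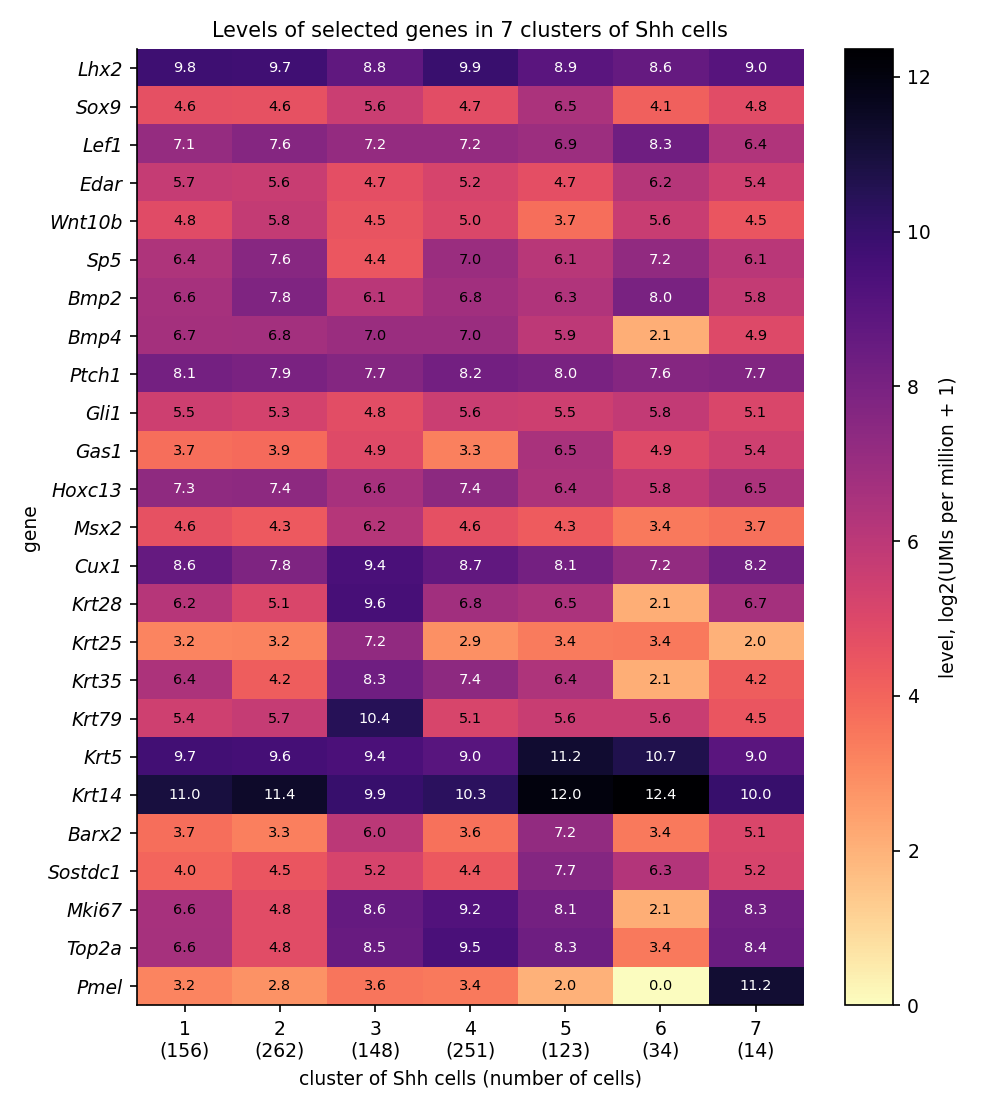
Levels of 25 genes (log2 of CPM plus 1, colour and number) in the 7 clusters of Shh cells, with the number of cells below each. Lhx2 and Ptch1 are present in all clusters, Krt28 and Krt25 peak in cluster 3, Mki67 and Top2a in cluster 4, Bmp4 is lowest in cluster 6 and Pmel is high in cluster 7 alone.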

How the data were processed

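Libraries of 2 KO mice were made with 10x Genomics 3′ chemistry from dissociated epidermis. The deposited files hold the UMI counts that the authors obtained with Cell Ranger 3.0.2 on mm10 (27998 genes, 10816 and 15867 barcodes); they are whole numbers without normalization or a filter on mitochondrial share. Genes were placed by GENCODE M21 (27645 of 27998 identifiers found).

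The members and the 25 gene lists (288 of 291 genes found in the files) were chosen with earlier results of these data known. UMI counts were summed per mouse and group and tested in R 4.3.3 with edgeR 4.0.16 (TMM, filterByExpr, quasi-likelihood F-test, Benjamini-Hochberg, 13082 genes, 4 residual degrees of freedom, common biological coefficient of variation 0.0939). The test was also run on simulated data, and the outcome is not given here. The cells of a mouse come from the same animal, so the replicate number pairs the sums: deviations from the group means correlated at 0.127 to 0.490 (median 0.211) over the 6 pairs of groups. With 2 animals, p-values measure the spread between these 2 mice only. DESeq2 1.42.0, other scaling, filters and groups were alternatives. All list members were counted, and beyond them the 10 genes most raised and most reduced per comparison were named as stated in the text, leaving out mitochondrial, ribosomal, Gm and Rik genes. Cells were clustered with scanpy 1.11.5 (1000 variable genes, 15 components, resolution 0.5), and a leading gene had to be found in 25% of a cluster's cells. Scrublet's own threshold called 2 cells in KO mouse 1 and 416 in KO mouse 2, so a score of 0.2 was set for both after seeing this; the share of calls was then 2.47% and 4.21%. One item is not reported here.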

Additional observations from a re-analysis of the deposited data

Results flagged for a closer look

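Of the barcodes that the quality filter removed, 75 of 3209 in KO mouse 1 and 84 of 3986 in KO mouse 2 held at least 2 Shh UMIs, that is 2.34% (exact 95% interval 1.84% to 2.92%) and 2.11% (1.68% to 2.60%). They hold Shh outside the cells described, above the 0.0935% and 0.0753% that a count of 0 would allow, a limit that a few barcodes pass. Shh was at 36.3 CPM (exact 95% Poisson interval 33.3 to 39.5) and 34.7 CPM (32.0 to 37.6) in the removed barcodes, against 20.9 CPM in all retained cells of either mouse. In melanocyte-type cells, which should lack Shh, it was at 4.02 CPM (2.42 to 6.28) and 8.13 CPM (6.37 to 10.2), and the share with at least 2 Shh UMIs was 0.917% (0.251% to 2.33%) and 1.77% (0.946% to 3.01%). The level in the removed barcodes thus lay above that in melanocyte-type cells in both mice, while the intervals of the shares overlapped. All intervals cover counting error only. Of the removed barcodes with Shh, 51 and 63 had 10% or more mitochondrial UMIs, 24 and 19 had more than 7700 genes, and 5 and 5 had fewer than 900.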

How the results depend on the processing

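With 2 mice, p-values rest on few sums, and shares of cells with a UMI depend on depth. The share of Shh cells, 5.08% as reported, was 3.45% with at least 3 Shh UMIs, 8.48% with at least 1, 5.17% without the keratin limit, 5.37% under 5% mitochondrial UMIs, 4.96% without called doublets, 5.35% with 8000 to 30000 UMIs and 2.55% after thinning to 5000 UMIs. Thinning gave Lhx2 in 91.9% and Sox9 in 12.4% of Shh cells, and without called doublets Lhx2 was in 97.3%. Called genes against follicle cells, basal keratinocytes and inner root sheath cells numbered 1392, 3000 and 1088 under 5% mitochondrial UMIs. That setting ended the most calls of named genes, 17, of the settings that kept every sum: against follicle cells Cdon, Fst, Krt14, Smad6, Foxe1, Pmel and Col1a1, against basal keratinocytes Axin2, Id1 and Boc, and against inner root sheath cells Ptch1, Gli1, Cdon, Boc, Sostdc1, Krt75 and Tchh. With the replicate block, 4663 genes passed against follicle cells, and the block, beside Smo and Lef1, changed no other call of a named gene. Leaving out 1 sum at a time gave 1534 (without Shh cells of KO mouse 1) to 2785 genes against follicle cells, 4347 to 5918 against basal keratinocytes and 927 (without inner root sheath cells of KO mouse 2) to 2435 against inner root sheath cells. For the 193 fold changes of named genes, 185 of them called, 2122 values came from settings that kept every sum: 2067 kept direction and call, 39 lost the call, 5 gained it and 11 changed sign. Of 1544 values with 1 sum left out, 47 lost the call and 5 changed sign. Sign changes concerned differences that had not passed the threshold, except Tchh against inner root sheath cells (0.35 with at least 1 Shh UMI, 0.27 with 8000 to 30000 UMIs) and, against follicle cells with at least 1 Shh UMI, Tchh (1.63) and Krt71 (1.48). The others were, against follicle cells, Ptch1 (0.12 under 5% mitochondrial UMIs, -0.20 to 0.12 when leaving out sums or a mouse), Id3 (0.0295 under 5% mitochondrial UMIs) and Id1 (-0.27 to 0.0406 when leaving out sums), and, against basal keratinocytes, Sox9 (-0.0185 without the filter on low counts, -0.0115 without called doublets, -0.36 with at least 3 Shh UMIs, -0.0215 without the keratin limit, -0.67 under 5% mitochondrial UMIs, and -0.15 to 0.19 when leaving out sums or a mouse). Against follicle cells, leaving out a single sum ended the calls of Scube2, Cdon, Smad6, Krt71, Krt14, Krt25, Mki67, Ccnd1, Pmel, Col1a1, Lum and Foxe1, and at least 1 Shh UMI ended that of Cyp2g1 (-1.30). Against inner root sheath cells, leaving out a single sum ended those of Ptch1, Gli1, Cdon, Boc, Sostdc1, Foxn1 and Krt75, and against basal keratinocytes that of Boc. Removing melanocyte-type and immune-type cells, an alternative added after seeing the data, ended the Pmel call against follicle cells (0.30). The cause was not tested.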

Other observations

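The neighbours of Shh on chromosome 5 were looked at after their values had been seen. Within 1 Mb of the gene, GENCODE M21 places 11 other protein-coding genes, of which 6 were tested. Rnf32 (chr5:29195992-29228457), a RING finger gene 729 kb from Shh, was at 22.3 and 22.3 TMM-scaled CPM in Shh cells, 1.18 and 1.68 in follicle cells without Shh, 0.873 and 1.53 in basal keratinocytes and 4.72 and 2.91 in inner root sheath cells. The Shh cells were above every other group in both mice (log2 fold change 3.93 ± 0.24, adjusted p = 1.19e-05, edgeR, 4.14 ± 0.26, 3.03e-06, and 2.65 ± 0.34, 0.00087). Lmbr1, the next gene, was at 21.5 and 20.3 in Shh cells and at 13.4 and 12.8 in follicle cells (0.67 ± 0.11), and Insig1, a regulator of sterol synthesis, at 27.7 and 23.9 and at 11.8 and 14.3 (0.97 ± 0.15). Of the 6 tested neighbours 3 were higher and none lower than in follicle cells, 4 higher than in basal keratinocytes, and 2 higher and 1 lower than in inner root sheath cells. Over all genes tested 10.3%, 23.1% and 10.3% were higher in the 3 comparisons and 11.4%, 21.3% and 8.71% lower. With so few genes, chosen after their values were seen, these counts give no result for the region. The nearest, Rbm33, was at 67.2 and 62.8 in Shh cells and at 59.4 and 53.4 in follicle cells, which did not pass the threshold.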
